A study of Mus musculus with 59 samples.

Results

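Of the 15642 BCL6 peaks called in livers of fed mice, 3094 (19.8%) were chosen by a rule on peak positions as BCL6-PPARα sites without PPARδ. Each had a BCL6 peak centre in fasted livers, a PPARα centre in fed livers and a PPARα centre in fasted livers within 200 bp of its own centre, and no PPARδ centre within 200 bp in either state. They are called the constant sites without PPARδ below, where constant means called in both states and not equally bound. At shared BCL6-PPARα sites the paper reported less BCL6 binding and more PPARα binding after fasting. The rule used the peak calls of 6 lists, so the presence or absence of those calls describes how the sites were selected and is no result.

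BCL6 is a transcriptional repressor of the zinc finger family that recruits corepressors carrying histone deacetylases, and it is best known from germinal centre B cells. PPARα and PPARδ are nuclear receptors that bind DNA as heterodimers with RXR and are activated by fatty acids. In liver, PPARα is known for driving fatty acid oxidation and ketone production during fasting. BCL6 is also expressed in hepatocytes. The usual PPAR-RXR element, DR1, is a direct repeat of 2 AGGTCA hexamers spaced by 1 base.

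The 6 lists came from chromatin immunoprecipitation and sequencing (ChIP-seq) of whole livers of male wild-type (WT) C57BL/6 mice, either fed ad libitum or fasted overnight. A seventh list held BCL6 peaks of fed livers from mice with the Bcl6 fl/fl genotype, which carry floxed Bcl6 alleles on C57BL/6 and served the study as controls. It was not used by the rule and gave BCL6 calls in livers other than those that selected the sites. Each list pooled 3 livers, so no list had a replicate spread, and tests between classes of peaks covered counting error over peaks only. The lists held 15642 fed and 9613 fasted BCL6 peaks, 21410 fed and 29085 fasted PPARα peaks, 7328 fed and 2399 fasted PPARδ peaks, and 17454 BCL6 peaks from Bcl6 fl/fl livers. They gave positions only, without height or read depth, so a missing PPARδ call means that no peak passed the threshold and not that PPARδ was absent. Peak positions hold no RNA, and the liver label could not be checked against marker expression.

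For comparison, 3 other classes of fed BCL6 peaks were set beside the constant sites without PPARδ. In 2108 peaks BCL6 and PPARα were called in both states and PPARδ in fed livers only. In 665 peaks BCL6, PPARα and PPARδ were all called in both states. In 2310 peaks, the fed-only BCL6 sites, PPARα was called in both states but BCL6 in fed livers only, with no PPARδ. The 3094 sites made up 52% of the 5946 fed BCL6 peaks that had BCL6 and PPARα in both states.

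The sequences at 5 of the sites show what the windows of 200 bp at the fed BCL6 centre looked like. Only 36 of the 3094 windows held both a BCL6 element (TTCCTAGAA with at most 1 mismatch) and a DR1 (at most 2 mismatches), and 2 of these lay nearest to a listed gene of lipid or glucose metabolism and outside exons. Both are shown from the plus strand of GRCm38 (mm10), with the BCL6 element and the DR1 in capitals.
Dgat2 (chr7:99194637-99194836): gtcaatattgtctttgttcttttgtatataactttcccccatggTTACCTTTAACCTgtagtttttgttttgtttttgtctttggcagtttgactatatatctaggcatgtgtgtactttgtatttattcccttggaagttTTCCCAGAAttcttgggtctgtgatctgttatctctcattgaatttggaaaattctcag
Abhd2 (chr7:79295247-79295446): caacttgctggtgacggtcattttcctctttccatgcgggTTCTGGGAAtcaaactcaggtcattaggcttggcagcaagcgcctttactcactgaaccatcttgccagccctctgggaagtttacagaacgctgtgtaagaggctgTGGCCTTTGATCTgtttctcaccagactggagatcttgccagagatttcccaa
The Dgat2 site was intergenic, 12023 bp upstream of the start of Dgat2, which encodes an enzyme of the last step of triglyceride synthesis. Its DR1 came first and its BCL6 element followed with element centres 95 bp apart. The Abhd2 site lay in intron 2 of Abhd2, a lipase gene, 22080 bp downstream of the start, with element centres 109 bp apart and the BCL6 element first. Each BCL6 element had 1 mismatch and each DR1 had 2.

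The next 3 windows were chosen after their positions were known, from among sites in promoters of listed metabolic genes that contain no exon, and capitals mark every match to the 12 elements searched.
G6pc (chr11:101367464-101367663): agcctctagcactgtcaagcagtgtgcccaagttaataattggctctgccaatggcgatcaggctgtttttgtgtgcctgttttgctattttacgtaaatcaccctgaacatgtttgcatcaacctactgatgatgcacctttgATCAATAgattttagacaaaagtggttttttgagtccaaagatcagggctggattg
Pck1 (chr2:173152691-173152890): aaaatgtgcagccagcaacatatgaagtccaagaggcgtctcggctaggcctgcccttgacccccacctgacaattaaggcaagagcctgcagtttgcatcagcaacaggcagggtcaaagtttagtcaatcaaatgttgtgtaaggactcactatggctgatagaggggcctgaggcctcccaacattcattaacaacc
Cyp8b1 (chr9:121916313-121916512): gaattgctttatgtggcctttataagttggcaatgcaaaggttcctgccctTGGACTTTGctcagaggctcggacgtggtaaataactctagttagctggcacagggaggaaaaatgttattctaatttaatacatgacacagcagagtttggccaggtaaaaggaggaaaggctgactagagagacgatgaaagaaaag
The G6pc site, 153 bp upstream of the start of the gene for the glucose-6-phosphatase catalytic subunit, held an HNF6 element. The Pck1 site, 283 bp upstream of the gene for the gluconeogenic enzyme PEPCK, held no match to any of the 12 elements. The Cyp8b1 site, 107 bp upstream of the gene for a sterol hydroxylase of bile acid synthesis, held an HNF4 element. None of these 3 windows held a DR1 or a BCL6 element at the mismatches allowed.

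DR1 was rarer at the constant sites without PPARδ than at constant sites with it. The element was found in 272 of 3094 windows (8.79%, 95% Wilson interval 7.84 to 9.84), against 325 of 2108 (15.4%, 13.9 to 17) where PPARδ was called in fed livers and 140 of 665 (21.1%, 18.1 to 24.3) where PPARδ was called in both states. Of all fed BCL6 windows, 11% held a DR1. The odds ratio was 0.529 against the sites with fed PPARδ (adjusted p = 6.75e-12) and 0.361 against the sites with PPARδ in both states (adjusted p = 8.96e-16; two-sided Fisher's exact test, Benjamini-Hochberg over 36 tests). Against the fed-only BCL6 sites, which also lacked PPARδ and held a DR1 in 10.7% of windows, the difference did not pass the threshold (odds ratio 0.805, adjusted p = 0.0708).
The interval of the DR1 share at the constant sites without PPARδ lay above that of the windows 1000 bp to either side of them, where 198 of 6188 (3.2%, 2.79 to 3.67) held a match. The same letters read backwards, a control for base composition, were found in 3.01% of the sites. Perfect matches were few. Of the 272 sites with a DR1, 3 had no mismatch, 47 had 1 and 222 had 2. In windows of 50 bp the difference from the sites with fed PPARδ missed the threshold (odds ratio 0.654, adjusted p = 0.104), and with at most 1 mismatch so did that from the sites with PPARδ in both states (odds ratio 0.558, adjusted p = 0.123).

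The BCL6 element was more frequent at the constant sites without PPARδ than at the fed-only BCL6 sites. It was found in 358 of 3094 windows (11.6%, 10.5 to 12.7) and in 165 of 2310 fed-only sites (7.14%, 6.16 to 8.27), with an odds ratio of 1.7 (adjusted p = 4.43e-07, Fisher's exact test). The sites with fed PPARδ held it in 13.2% (11.8 to 14.7) and those with PPARδ in both states in 12.3% (10 to 15), and neither difference from the constant sites without PPARδ passed the threshold (adjusted p = 0.227 and 0.738). Over all fed BCL6 peaks 16% held the element, and the constant sites without PPARδ lay below that. The flanks held it in 7.26% of windows (6.64 to 7.93), and the element read backwards was found in 4.62% of the sites.
The STAT element TTCNNNGAA, which can share its bases with the BCL6 element, was ordered likewise between these classes. It was found in 10.5% of the constant sites without PPARδ, in 14% of the sites with fed PPARδ (odds ratio 0.724, adjusted p = 0.0016) and in 8.1% of the fed-only sites (odds ratio 1.34, adjusted p = 0.0159, both Fisher's exact tests), beside 14.8% of all fed BCL6 peaks. Both calls were lost in windows of 50 bp (adjusted p = 0.312 and 0.19), and that against fed-only sites also in windows of 100 bp (adjusted p = 0.249) and at the PPARα centre (adjusted p = 0.113). Against the sites with PPARδ in both states (12%) the STAT difference did not pass the threshold (adjusted p = 0.443, Fisher's exact test). Of the 358 sites with a BCL6 element, 191 also held the STAT element. Most of the 3094 sites, 2500 (80.8%), held neither a BCL6 element nor a DR1, as did 74.5% of all fed BCL6 peaks and 82.9% of the fed-only sites.

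The C/EBP element was the one most often found, and the FOXA, HNF6 and HNF4 elements also stood well above their flanks. The C/EBP element TTGCNNAA was held by 930 sites (30.1%, 28.5 to 31.7) against 8.24% of the flanks and 25.5% of all fed BCL6 peaks. The sites with PPARδ in both states held it in 30.1%, those with fed PPARδ in 28.1% and the fed-only sites in 27%. No difference from these classes passed the threshold. C/EBP factors are leucine zipper proteins of hepatocytes. The FOXA element TGTTTAC, bound by forkhead pioneer factors, was held by 353 sites (11.4%) against 2.93% of the flanks and 9.75% of all fed BCL6 peaks. It was more frequent than at the fed-only sites (9.13%, odds ratio 1.28, adjusted p = 0.0313, Fisher's exact test), a difference that was lost in windows of 50 bp (adjusted p = 0.835) and 100 bp (adjusted p = 0.0907).
The HNF6 element TATTGAT was held by 303 sites (9.79%) and by 2.78% of the flanks, beside 11.6% of all fed BCL6 peaks. It was rarer than at the sites with fed PPARδ (12.7%, odds ratio 0.749, adjusted p = 0.00946, Fisher's exact test), which was lost in windows of 50 bp (adjusted p = 0.0995). Against the sites with PPARδ in both states (11.1%) the HNF6 difference did not pass the threshold (adjusted p = 0.478, Fisher's exact test). The HNF4 element CAAAGTCCA was held by 97 sites (3.14%) and 0.291% of the flanks, with 2.49% among all fed BCL6 peaks, and no comparison passed the threshold. The ETS element CCGGAAG was held by 32 sites (1.03%) and by 7 of the 2108 sites with fed PPARδ (0.332%), with an odds ratio of 3.14 (adjusted p = 0.0241, Fisher's exact test) that was lost in windows of 50 bp (adjusted p = 0.935) and 100 bp (adjusted p = 0.141). Its background was 0.639%.
For the remaining 4 elements no comparison passed the threshold. The glucocorticoid receptor element ACANNNTGT was held by 9.24% of the sites against a background of 8.52%, the GC box GGGCGG by 2.29% against 2.44%, the LRH-1 and ERR element TCAAGGTCA by 1.23% against 1.22%, and the CREB element TGACGTCA by 0.356% against 0.269%. At least 1 of the 12 elements was present in 2022 sites (65.4%) and in 66.6% of all fed BCL6 peaks.

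**Figure D1:**
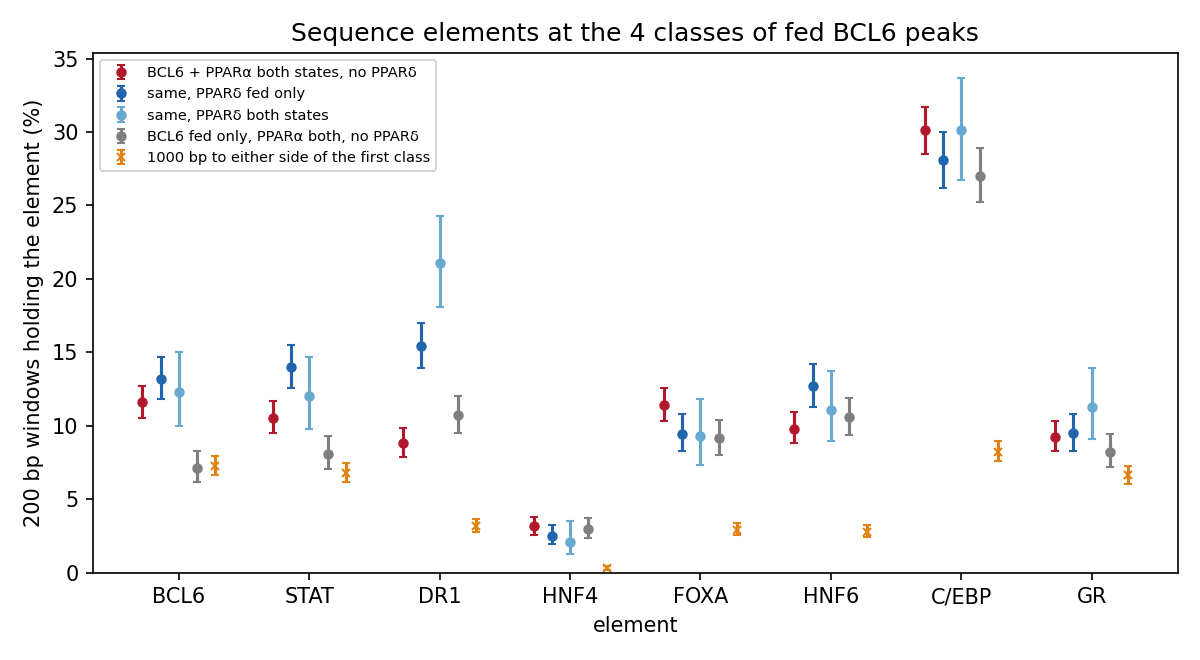
Share of 200 bp windows (y axis, percent) that held each of 8 elements (x axis) at the constant sites without PPARδ, the 3 other classes and the windows 1000 bp to either side of the first class, with points for shares and bars for 95% Wilson intervals. DR1 lies lowest of the 4 classes at the constant sites without PPARδ (8.79%), and the C/EBP element is the most frequent (30.1%).

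Matches lay close to the peak centres. In bins of 40 bp centred 20 bp to either side of the fed BCL6 centre, 9.41% and 10.3% of the constant sites without PPARδ held a C/EBP match, against 2.17% and 1.55% in the outermost bins centred 460 bp away. DR1 reached 2.49% and 2.26% in the same 2 central bins, where the sites with PPARδ in both states reached 7.22% and 5.86%. The BCL6 element reached 3.33% and 2.55%, whereas at the fed-only sites it stayed at 1.52% and 1.43%, within the range of its outermost bins (1.08% and 1.65%).
The fed BCL6 and fed PPARα centres were close enough that both elements fell near both. Among windows around the midpoint of the 2 centres, 207 with a BCL6 element had centres at least 20 bp apart, and the element was nearer to the BCL6 centre in 139 of these and nearer to the PPARα centre in 67. Of 173 such windows with a DR1, the element was nearer to the PPARα centre in 98 and nearer to the BCL6 centre in 75. The C/EBP element had no such lean, with 259 of 549 nearer to the BCL6 centre and 288 nearer to the PPARα centre. The HNF6 element was nearer to the BCL6 centre in 100 of 176 and to the PPARα centre in 74. For the FOXA element these were 125 and 96 of 223. A lean was thus not particular to the BCL6 element and DR1. These are descriptions over sites and were not tested.

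**Figure D2:**
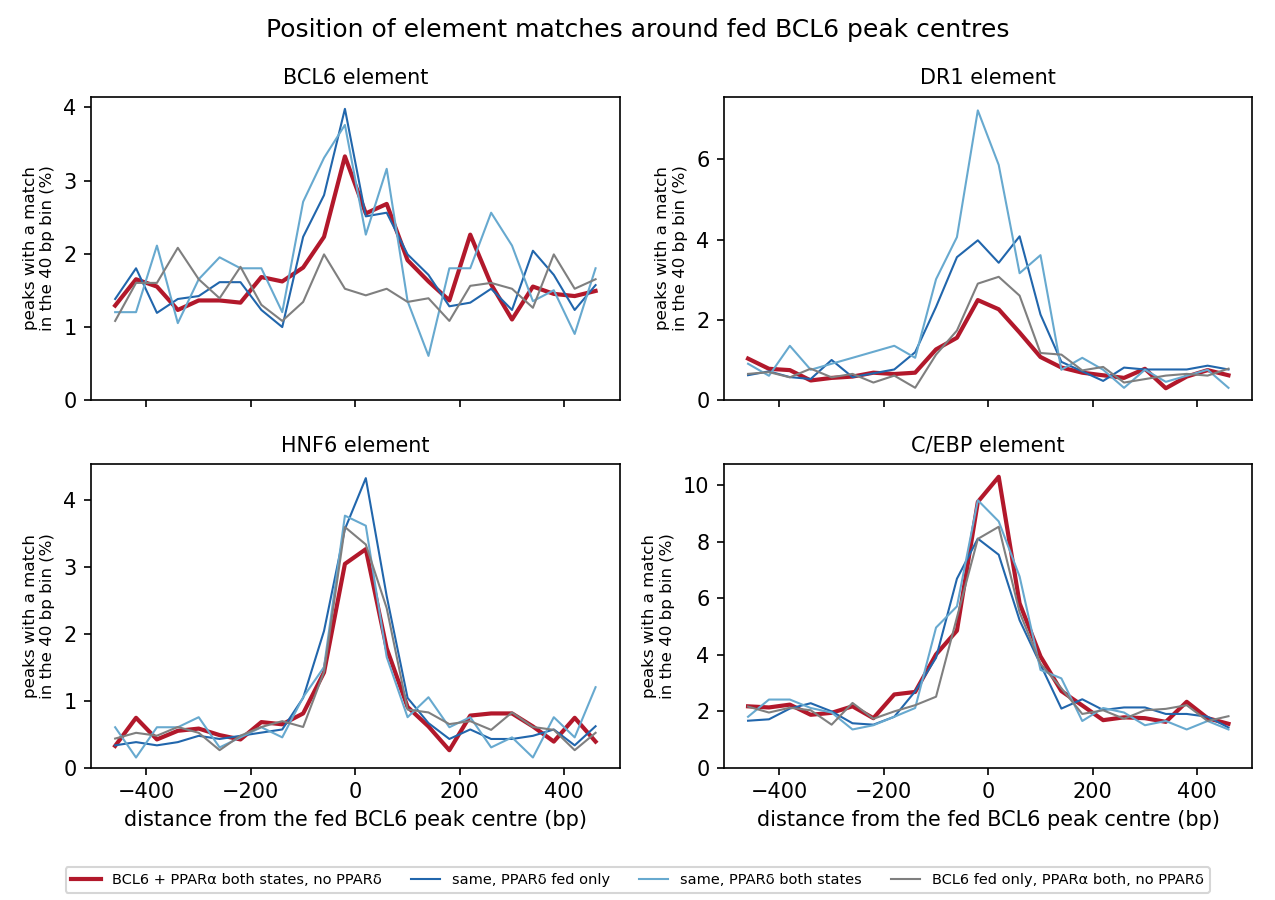
Share of peaks with a match (y axes, percent, each panel with its own scale) in bins of 40 bp against the distance from the fed BCL6 centre (x axis, bp) for 4 elements, with 1 line for each class. The DR1 line of the constant sites without PPARδ peaks at 2.49%, below the 7.22% of the sites with PPARδ in both states, and the BCL6 line of the fed-only sites has no central peak.

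BCL6 calls recurred in the Bcl6 fl/fl livers at most of the sites. A BCL6 centre of those livers lay within 200 bp of 2698 of the 3094 sites (87.2%, 86 to 88.3), against 69.4% of all fed BCL6 peaks. The share was lower than at constant sites with fed PPARδ (1974 of 2108, 93.6%, odds ratio 0.462, adjusted p = 1.83e-14) and with PPARδ in both states (633 of 665, 95.2%, odds ratio 0.344, adjusted p = 2.44e-10, Fisher's exact test). It was higher than at the fed-only BCL6 sites, where 1378 of 2310 peaks (59.7%, odds ratio 4.61, adjusted p = 1.11e-119, Fisher's exact test) recurred. The rule already required a BCL6 call in fasted livers, which the fed-only sites lack by definition. A higher share in another BCL6 list can follow from that selection, as can the excess over all fed BCL6 peaks. The constant sites with PPARδ were likewise chosen by PPARδ calls that the sites had to lack. Their higher share can follow from that selection too. No difference in recurrence between classes, or from all fed BCL6 peaks, is therefore read as a trait of the sites. The recurring centre was a median of 20 bp from the original.
Among the 3094 sites themselves, recurrence was 93.6% (90.5 to 95.7) in the 358 with a BCL6 element and 86.4% (85 to 87.6) in the 2736 without it. It was 85.3% (80.6 to 89) with a DR1 and 87.4% (86.1 to 88.6) without. Sites with the HNF4 element recurred in 79.4% (70.3 to 86.2) and sites without it in 87.5% (86.2 to 88.6). With the C/EBP element it was 86.1%, and 87.7% without. Higher recurrence with an element was not particular to the BCL6 element. It was 91.7% with the STAT element (86.7% without), 91.2% with FOXA (86.7%) and 90.1% with HNF6 (86.9%). These shares were not tested. By position, promoter sites recurred in 83.1% (76.3 to 88.3), intronic sites in 86.8% (85 to 88.4) and intergenic sites in 88.2% (86.4 to 89.9).

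**Figure D3:**
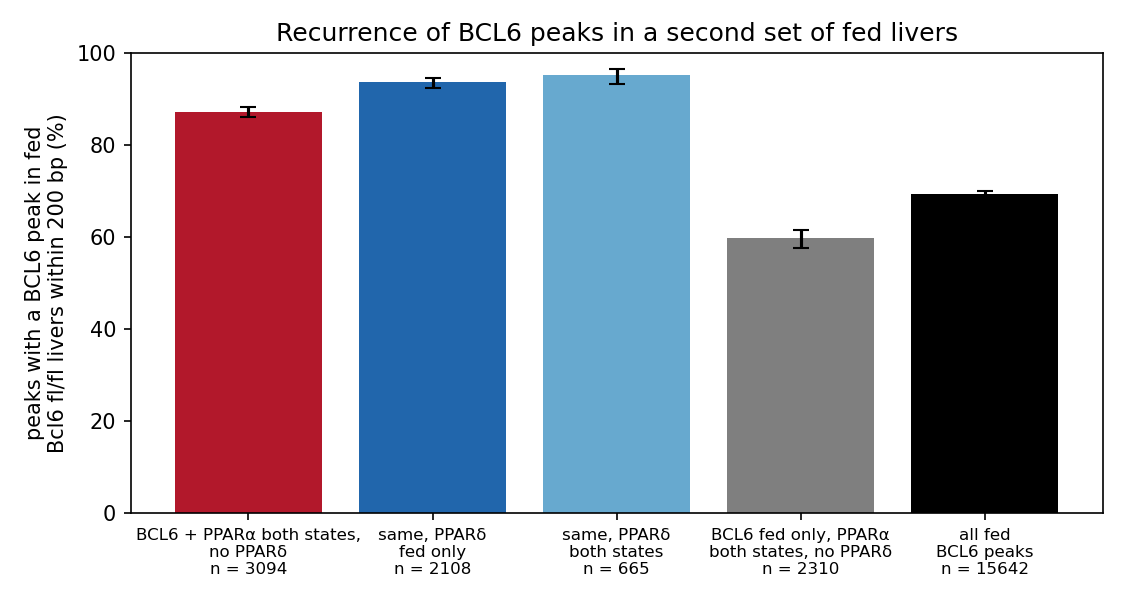
Share of peaks (y axis, percent) with a BCL6 peak of fed Bcl6 fl/fl livers within 200 bp, for the 4 classes and for all fed BCL6 peaks (x axis), with 95% Wilson intervals as bars. The constant sites without PPARδ (87.2%) lie between the constant sites with PPARδ (93.6% and 95.2%) and the fed-only BCL6 sites (59.7%). The fed-only sites were selected for lacking a BCL6 call in fasted livers, and the constant sites with PPARδ for having PPARδ calls.

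The calls that selected the sites were tightly placed. The median distance from the fed BCL6 centre was 24 bp to the fasted BCL6 centre, 25 bp to the fed PPARα centre and 26 bp to the fasted PPARα centre. In 2851 sites (92.1%) all 3 centres lay under 100 bp away and in 1712 (55.3%) under 50 bp. Only 16 sites had their farthest required centre 180 to 200 bp away, and 15 fed BCL6 peaks without PPARδ just missed with a farthest centre at 201 to 220 bp. A PPARδ centre lay 201 to 220 bp away from 5 sites, and 10 constant peaks were left out for a nearest PPARδ centre 180 to 200 bp away.
PPARδ peaks were often found farther out. The nearest PPARδ centre was 201 to 1000 bp away at 170 sites (5.49%), 1001 to 10000 bp away at 871 (28.2%) and 10001 to 100000 bp away at 1360 (44%), and 693 sites (22.4%) had none within 100000 bp. A DR1 was found in 6 of the 170 nearest sites (3.53%, 1.63 to 7.49) and in 8.95% to 9.26% of the sites in the other 3 ranges. The low share was not particular to DR1. The BCL6 element was found in 11 of the 170 (6.47%, 3.65 to 11.2) and in 11.5% to 12.3% farther out. The C/EBP element was found in 24.7% and in 27.9% to 32%, while the HNF4 element was found in 2.35% and in 2.18% to 3.82%. These shares were not tested.

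The sites were mostly far from genes' starts, as were the other classes. Promoters, here the 1000 bp before a transcription start and the 100 bp after it, held 148 sites (4.78%, 4.09 to 5.59), beside 4.36% of all fed BCL6 peaks. Introns held 1536 (49.6%, beside 49.9% of all fed BCL6 peaks) and intergenic sequence 1336 (43.2%, beside 43.3%). Intergenic here means outside curated RefSeq transcripts and includes 237 sites inside the full span of an annotated gene. Coding exons held 23 (beside 0.863% of all fed BCL6 peaks, here 0.743%) and 3′ untranslated exons 31 (1%, beside 1.13%). The 5′ untranslated exons outside promoters held 8 (0.259%, beside 0.141%) and noncoding exons 12 (0.388%, beside 0.371%). Introns held 48.7% of the sites with fed PPARδ, 49.1% of the fed-only sites and 42.7% of the sites with PPARδ in both states. Of the last, 50.7% were intergenic. These shares were not tested. The promoter shares of the other 3 classes lay between 4.27% and 4.98%, and no difference passed the threshold (adjusted p = 0.841 in each, Fisher's exact test). The median distance to the nearest start was 21353 bp (quartiles 6457 and 53480), against 18556, 17962 and 21796 bp in the sites with fed PPARδ, with PPARδ in both states and with fed-only BCL6, and no difference in mean log10 distance passed the threshold (adjusted p = 0.21 in each, two-sided permutation test).
Base composition differed from that of the constant sites with PPARδ and lay near that of all fed BCL6 peaks. The windows had a mean of 44% G and C (SD 5.48, n = 3094), which was 1.4 percentage points below the sites with fed PPARδ at 45.4% (SD 5.28, n = 2108) and 2.24 points below the sites with PPARδ in both states at 46.3% (SD 5.28, n = 665), each with a permutation p of 1e-05, the smallest that the permutations could give. The fed-only sites had the same rounded mean of 44% (SD 6.27, permutation p = 0.89). Over all fed BCL6 windows the mean was 43.9%. Repeat-masked bases made up a mean of 11.5% of a window, against 10.1% in the sites with fed PPARδ (adjusted p = 0.00169) and 8.47% with PPARδ in both states (adjusted p = 3e-05, permutation tests). The former missed the threshold in windows of 50 bp (adjusted p = 0.151). Over all fed BCL6 windows the repeat-masked mean was 12.3%, above that of the sites. The part that base composition had in the DR1 difference was not tested.

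The sites were spread thinly over many genes. Assigned to the nearest protein-coding start within 1 Mb, 3078 sites fell to 2138 genes, of which 1549 had 1 site and 29 had at least 5. Of the 2138 genes, 854 (39.9%) also had a constant site with PPARδ. The like share for genes near other fed BCL6 peaks is not given, so 39.9% is not read as high or low. The 10 genes with most sites are given with their sites out of the fed BCL6 peaks nearest to them. First were Rora (9 of 25), Adgrl2 (8 of 33), Irs2 (8 of 22) and Pik3r1 (8 of 25). Next were Cpeb2 (7 of 21), Gc (7 of 13) and Sp3 (7 of 14). Last were Cadm1 (6 of 15), Dapk1 (6 of 12) and Dusp6 (6 of 14). Over all fed BCL6 peaks the share was 19.8%. The ranking is by count, which favours loci with many BCL6 peaks, and was not tested. Each of the 10 genes also had 2 to 5 constant sites with PPARδ nearby.
Rora encodes a nuclear receptor of the circadian clock, and its 9 sites all lay in introns 1 and 2 of the gene (chr9:68653404-69388246), each with a BCL6 peak in the Bcl6 fl/fl livers and 1 with a DR1. Irs2, an adaptor of the insulin receptor, had 8 recurring sites from 131789 bp upstream to 154165 bp downstream of its start, 2 with a BCL6 element and 1 with a DR1. Pik3r1, a regulatory subunit of phosphoinositide 3-kinase, had 6 of 8 sites recurring and the same numbers of elements. Gc encodes the vitamin D binding protein made by the liver, and 1 of its 7 sites lay 2 bp from its start, with neither element in any of the 7. The 8 sites of Adgrl2, an adhesion receptor, lay outside its curated transcript, 1 of them inside the longer span that predicted transcripts give the gene, and reached 980392 bp from the curated start.

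**Figure D4:**
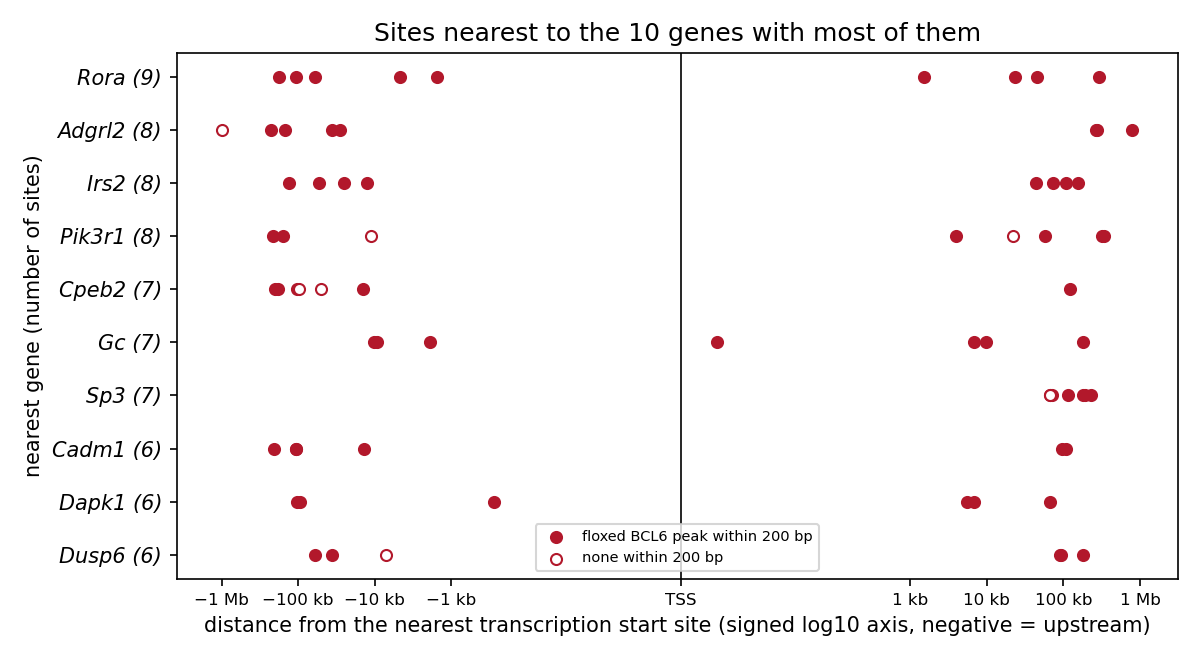
Position of each constant site without PPARδ relative to the nearest transcription start (x axis, signed log10 scale) for the 10 genes with most sites (y axis, number of sites in parentheses), filled where a BCL6 peak of Bcl6 fl/fl livers lay within 200 bp. Rora has 9 sites, all filled, and Adgrl2 reaches 980392 bp upstream of its curated start.

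The sites were counted near the genes of 23 lists. No list was tested, and since the rule uses the same calls nothing is read from the background of 19.8%. Of 97 fed BCL6 peaks nearest to insulin signalling genes, 31 (32%) were constant sites without PPARδ, including 8 at Irs2, 8 at Pik3r1, 4 in intron 2 of Insr, the insulin receptor gene, and 3 at Trib1. Of 81 peaks nearest to genes of growth hormone, STAT and SOCS signalling, 28 (34.6%) were, including 6 at Prlr, 5 at Ghr, 4 at Igf1 and 4 at Socs2, the feedback inhibitor of growth hormone signalling. The Socs2 sites included 1 in the promoter, 54 bp upstream of the start, and 2 of the 4 held a BCL6 element.
Over the lists of lipid and glucose metabolism together, 97 of 517 fed BCL6 peaks (18.8%) were constant sites without PPARδ, near 64 of 194 genes. The mitochondrial list had 7 sites at 5 of 15 genes, with 2 each at Acaa2 and Decr1, and the peroxisomal list had 12 at 8 of 18 genes, with 3 each at the transporter genes Abcd2 and Abcd3. The carnitine shuttle had 1 of 9 peaks (11.1%), at Slc22a5. Ketone body genes had 3 of 23 (13%), at Acss3 and Slc16a1. Lipid droplet and lipolysis genes had 3 of 36 (8.33%), at Abhd5, Lipc and Abhd2.
Acyl-CoA thioesterase genes had 5 of 21 peaks (23.8%). All 3 fed BCL6 peaks nearest to Acot3, a peroxisomal thioesterase gene, were constant sites without PPARδ, 1285 bp upstream and 646 and 1122 bp downstream of its start, the latter 2 in the 5′ untranslated exon 2. Synthesis of fatty acids had 11 of 54 peaks (20.4%), 4 at the elongase gene Elovl6 and 3 at Mlxipl, the gene for the carbohydrate-response factor ChREBP, where all 3 fed BCL6 peaks were in the class. Triglyceride synthesis had 6 of 26 (23.1%), 3 of them at Dgat2. Cholesterol and bile acid genes had 14 of 66 (21.2%), including 3 at Cyp7b1, and lipoprotein genes had 11 of 56 (19.6%), including 3 at Abca1 and 2 at Apoa5.
Gluconeogenic and glycogen genes had 12 of 57 peaks (21.1%), among them 3 at G6pc, the most distal 11710 bp upstream, and the promoter site of Pck1. Fasting hormones and coactivators had 8 of 67 (11.9%), with 3 at Igfbp1 and 2 at Ppargc1a. Nuclear receptor genes had 26 of 118 (22%), hepatocyte transcription factor genes 22 of 96 (22.9%) and clock genes 17 of 67 (25.4%), Rora being on the nuclear receptor and clock lists. BCL6 and its corepressors had 11 of 69 (15.9%), of which 2 lay at Bcl6 itself, 1712 bp downstream in intron 1 and 72843 bp upstream. Omega-oxidation genes had 3 of 29 (10.3%), and fatty acid uptake and activation genes 9 of 51 (17.6%), including 2 each at Fabp2, Acsl1 and Lpl. The comparison lists gave 10 of 65 (15.4%) for lymphocyte BCL6 targets, 9 of 44 (20.5%) for ribosomal proteins and 1 of 6 (16.7%) for keratins.

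**Figure D5:**
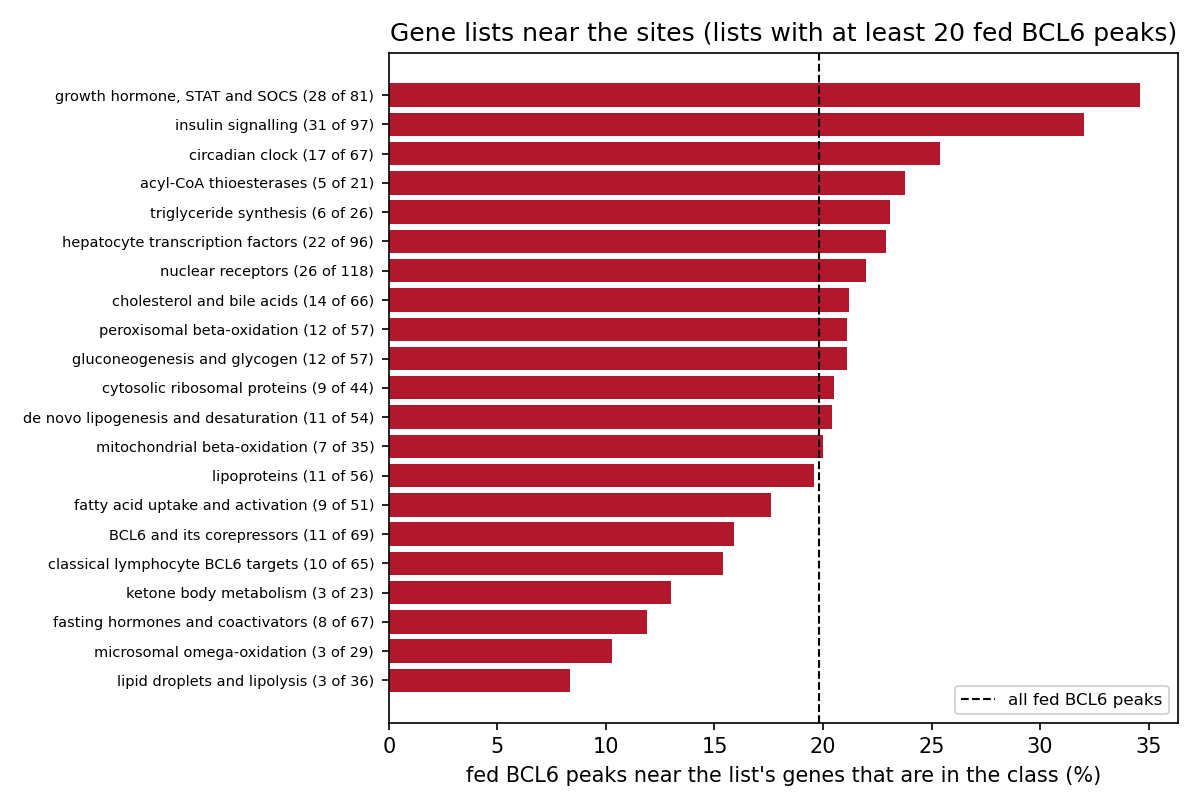
Percent of the fed BCL6 peaks near each list's genes (y axis, sites of all peaks in parentheses) that were constant sites without PPARδ (x axis), for lists with at least 20 fed BCL6 peaks. The shares run from 8.33% for lipid droplets and lipolysis to 34.6% for growth hormone, STAT and SOCS, none was tested, and the dashed line gives the share over all fed BCL6 peaks (19.8%).

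Of 15 regions that the study assayed by ChIP-qPCR, 1 had its amplicon centre within 200 bp of a constant site without PPARδ. It was the Acot3 region at chr12:84053145-84053351, in the 5′ untranslated exon 2, whose site centre lay 25 bp away and whose nearest PPARδ centre was 10783 bp away. Another 13 lay at constant sites with PPARδ, 6 with PPARδ in fed livers only and 7 in both states, and 1 lay at a fed BCL6 peak of no class compared here. The constant sites without PPARδ were 19.8% of all fed BCL6 peaks and 52% of those with BCL6 and PPARα in both states. The study chose these regions at shared BCL6-PPARα sites of named genes, and assayed PPARδ at some. They are no random sample of sites, and nothing is read from the count.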

How the data were processed

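Chromatin from mouse livers was immunoprecipitated for BCL6, PPARα or PPARδ and sequenced by the authors. Per the labels, reads were aligned to mm10 with Bowtie and peaks were called with HOMER and DESeq2. According to the methods, HOMER pooled 3 replicates against input and kept peaks by fold change and false discovery rate, which sets which weak sites are missing. The deposited lists give chromosome, start and end of peaks of fixed width, and no count, score or signal, so depth is unknown. The 7 lists used rest on 21 of 59 samples.

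Peak centres were compared at 200 bp in Python 3.11.15 with NumPy 2.4.6 and SciPy 1.17.1. Windows of 200 bp and annotation came from RefSeq on GRCm38 (45756 curated transcripts, predicted ones left out, 21000 protein-coding genes), the build the authors name as mm10. Two-sided Fisher's exact tests were run on shares, and means were compared by two-sided permutation tests (100000 resamples), with Benjamini-Hochberg adjustment over 3 tests for recurrence, promoters and distance, 36 for elements and 9 for composition, and a threshold of 0.05. Neighbouring peaks are not independent, so p-values are approximate. Functions were tested on simulated data.

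Genes named were the 10 with most sites, up to 4 per list, the assayed regions near a site, and sites holding both elements. Cyp8b1 was named after its values were seen. Some items are not reported here. The members and lists were chosen with earlier results of these data known.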

Additional observations from a re-analysis of the deposited data

How the results depend on the processing

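The number of sites stayed between 2924 and 3159 under 6 other definitions. Recurrence in Bcl6 fl/fl livers kept its direction and side of the threshold under every alternative run, as did the BCL6 element against fed-only sites. DR1 against fed PPARδ weakened in windows of 50 bp (odds ratio 0.654), and DR1 against PPARδ in both states weakened with 1 mismatch fewer (0.558). The BCL6 element turned to 1.06 against fed PPARδ in windows of 50 bp and to 1.47 against PPARδ in both states with 1 mismatch fewer, passing no threshold. Shorter windows hold fewer matches by construction.

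With 1 peak per nearest gene, which keeps the peak closest to the start, the promoter odds ratio against fed-only sites turned to 1.06, and the difference in log10 distance turned to -0.0224 against fed PPARδ and -0.0636 against PPARδ in both states and passed the threshold against fed-only sites at -0.07. The difference in G and C against fed-only sites turned to 0.108 and the CpG difference against fed PPARδ to 0.00685. The CpG difference against fed-only sites (-0.141, adjusted p = 0.0256, permutation test) weakened to -0.128 here, to -0.0623 outside promoters, to -0.0256 in windows of 50 bp and to -0.0524 in windows of 100 bp. Outside promoters the G and C difference against fed-only sites turned to 0.142. With promoters from 5000 bp upstream to 1000 bp downstream, odds ratios turned to 0.971 against fed PPARδ and 1.05 against fed-only sites. The repeat difference against fed-only sites passed at -0.968 with classes at 100 bp, and that against fed PPARδ weakened to 1.1 in windows of 50 bp.

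Other elements turned without passing the threshold. In windows of 50 bp these were HNF4 (0.967 against PPARδ in both states, 0.96 against fed-only), C/EBP (1.12), LRH-1 and ERR (5.13 against fed PPARδ) and the GC box (1.61 and 1.12). In windows of 100 bp they were STAT (1.03), C/EBP (1.08) and LRH-1 and ERR (1.3 and 0.98). At the PPARα centre they were C/EBP (1.05) and LRH-1 and ERR (1.14 and 0.932). Without masked bases they were LRH-1 and ERR (1.02) and the GC box (1.01). Past the threshold only under an alternative were the glucocorticoid receptor element against PPARδ in both states in windows of 50 bp (0.446), C/EBP against fed PPARδ in windows of 100 bp (1.23) and against fed-only sites at the PPARα centre (1.18), and FOXA against fed PPARδ without masked bases (1.29). Except where stated, the cause was not tested. Leaving out a replicate could not be run, since the lists hold no value per replicate. No paired analysis was possible because each list pools its replicates.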

Other observations

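Neighbouring sites were uncommon. The median distance from 1 constant site without PPARδ to the next was 68731 bp, and 571 of the 3094 sites (18.5%) had another within 10000 bp. By chromosome, the share of fed BCL6 peaks in the class ran from 14.8% on X (36 of 244) to 25% on chromosome 19 (149 of 595), leaving out Y, which had 0 of 2.

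Of 10 hepatocyte marker genes, 9 were the nearest gene of a fed BCL6 peak and 8 of at least 1 site. The sites were 13 of the 60 fed BCL6 peaks nearest to these genes. Of 11 marker genes of other liver cells, 5 were nearest to a fed BCL6 peak and 2 to a site, with 2 of 8 peaks. Over all fed BCL6 peaks the share was 19.8%, so the gene counts give no preference of the class for hepatocyte genes. These are positions of peaks and not expression.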
